A study of Mus musculus with 51 samples.

Results

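The 16 libraries described here, of 51 in the series, were made from dopaminergic neurons of the midbrain of mice aged 8 months. They were chosen by their labels: cell type mDA (midbrain dopaminergic), strain DatCreEed and a timepoint of 8 months, with 8 libraries of genotype wt and 8 of genotype PRC2 mutant. Each library came from 1 animal, and RNA was read with Smart-seq2, a full-length method for small amounts of RNA, after the cells had been sorted by fluorescence. The comparison asks how expression differs between dopaminergic neurons with and without a working Polycomb repressive complex 2 (PRC2). In a DatCre line the Cre recombinase is driven from the gene of the dopamine transporter (Slc6a3, also called Dat), so Eed, a core PRC2 subunit, is targeted in cells that use that gene. The labels give wt and mutants the same strain name and do not say whether the wt animals carry the Cre allele. No treatment is given. The 16 animals fell into 3 sequencing sets. In set1 there were 4 wt (1 female, 3 male) and 4 mutants (3 female, 1 male), in set2 2 wt (2 male) and 4 mutants (1 female, 3 male), and in set3 2 wt (2 female) and 0 mutants. With the set as a term, the 2 wt libraries of set3 (D833 and C250) add nothing to the difference between genotypes. They enter only the estimate of spread, so that each fitted fold change below compares 6 wt and 8 mutant libraries. Each is also corrected by a term for sex, which is shared with 19 libraries at 4 months fitted together with these. The level ranges show all 16 libraries.

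PRC2 adds methyl groups to lysine 27 of histone H3, a mark of silenced genes that is dense over the promoters of developmental regulators such as the HOX genes. EED binds this mark and holds the complex together with SUZ12 and a catalytic subunit, EZH1 or EZH2, and the mark in turn is read by PRC1, which compacts chromatin and ubiquitinates histone H2A. Midbrain dopaminergic neurons make dopamine from tyrosine, load it into vesicles and take it up again through the dopamine transporter, and a small group of transcription factors that specify them in the embryo stays on in the adult.

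Total counts per library ran from 1644460 to 12250492 in wt (median 4606158) and from 4312167 to 11896342 in mutants (median 7583780), and the lowest was C250. A count of 3 stood for 0.234 to 1.78 CPM, the unit of level used below: counts per 1000000 counts of a library, after scaling by TMM. Eed itself (chromosome 7, 89954654 to 89980976, GRCm38) was at 8.38 to 17.2 CPM (median 14.2) in wt and 8.90 to 36.2 CPM (median 21.6) in mutants, and was not called (log2 fold change 0.60, SE 0.29, adjusted p = 0.271; the quasi-likelihood test of edgeR, adjusted after Benjamini and Hochberg, here and below). A count over the whole gene cannot single out deleted exons, so it checks no label, and "mutant" below stands for "labelled mutant". The dopaminergic label was met in wt, where Th, Slc6a3 and Slc18a2 each stood at 1004 CPM or more in every library. Summed markers of microglia (15 genes) were 56.5 to 106 CPM in wt and 49.9 to 125 in mutants, and those of oligodendrocytes (17 genes) 595 to 1102 and 533 to 1566. Summed astrocyte markers (18 genes) were 631 to 813 CPM in the 4 wt and 886 to 1318 in the 4 mutants of set1, without overlap, and 1258 and 1357 in the 2 wt and 1046 to 4118 in the 4 mutants of set2. All 18 estimates for these markers were above 0 (median log2 fold change 1.02), and 3 of the 18 were called higher (16.7%). Summed endothelial and mural markers (16 genes), the cells of blood vessels, were 16.2 to 77.5 CPM in wt and 18.1 to 37.3 in 5 mutants, but 1186, 487 and 1068 CPM in the mutants D161, D170 and D176, all males of set2, and 12 of the 15 tested estimates were above 0 (median 1.47). None of these markers was at 0 in all libraries of a genotype. The part of astrocyte RNA in the results below was not tested, and counts that move without D161, D170 and D176 are given beside each group of genes.

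**Figure D1:**
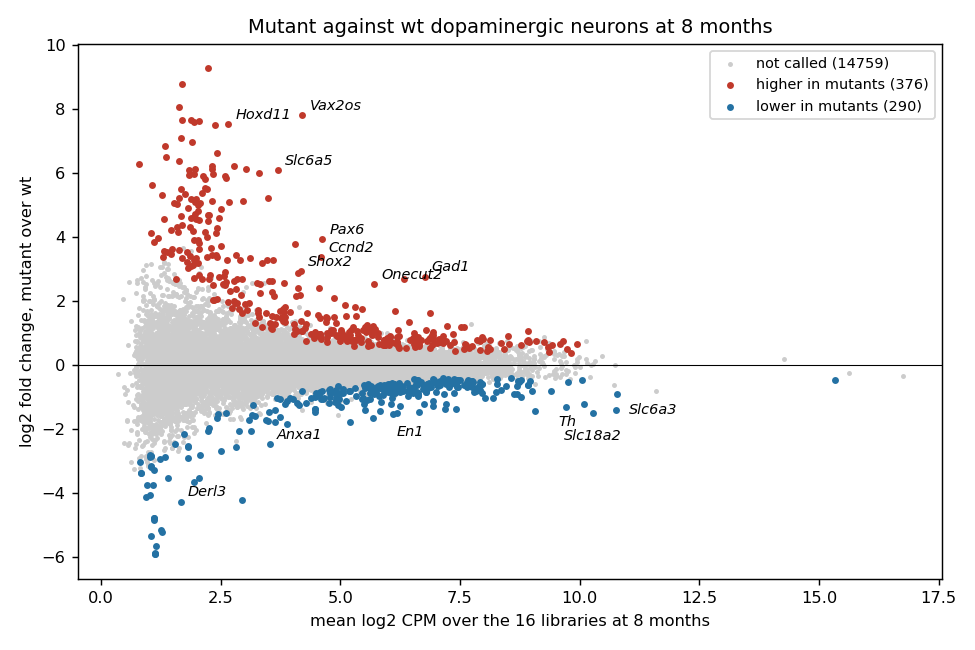
Each point is 1 of the 15425 tested genes, placed by its mean log2 CPM over the 16 libraries (x axis) and its log2 fold change of mutant over wt (y axis), red where higher in mutants (376), blue where lower (290) and grey where not called. The largest fold changes lie among genes of low mean level and point upward, such as Hoxd11 and Vax2os, while the abundant dopamine genes Th, Slc6a3 and Slc18a2 lie below 0.

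At 8 months mutant neurons had more RNA of regulators of other body regions and cell types, and less of the genes that make a neuron dopaminergic. Of 15425 genes tested, 376 were higher in mutants (2.44%) and 290 lower (1.88%), at an adjusted p under 0.05, where 2697 had an unadjusted p under 0.05. The higher genes started low and moved far: their median level was 11.9 CPM in wt and 36.9 in mutants, 78 were under 1 CPM in wt, 155 differed by more than 4-fold and 75 by more than 16-fold. Of the 75, 3 had 0 counts and 11 had 1 to 3 counts in the 6 wt libraries on which the fold change rests, so their fitted fold changes are imprecise. The lower genes were already well expressed, with a median of 84.7 CPM in wt and 53.1 in mutants, and 43 differed by more than 4-fold and 14 by more than 16-fold. All 8 mutants stood above all 8 wt libraries in 127 of the 376 higher genes, and below them in 61 of the 290 lower genes. Over all tested genes the shares with such a separation were 0.875% and 0.441%. Within set1 and set2 fitted apart, the sign was the same in both sets for 360 of 366 higher genes and 260 of 262 lower genes that could be fitted in each. These genes were called from the same libraries, so such agreement is largely built in and nothing is read from it. The number of calls rested on the model: without the term for sex 231 genes were higher and 162 lower, and with the 16 libraries alone 229 and 154. Of the 125 called genes described below, 39 were not called without the term for sex and 29 not with the 16 libraries alone, and 39 lost their call when some single library was left out. In every one of 23 alternative fits (7 other settings, and each of the 16 libraries left out) 152 higher and 84 lower genes were called again. Set1 and set2, each fitted alone, were not among the 23. Set1 alone called 251 of the higher and 171 of the lower genes again, and set2 alone 38 and 14. Of the 125 genes described below, 101 kept their call in set1 alone and 35 in set2 alone. Without D161, D170 and D176, 285 of the higher and 219 of the lower genes were called.

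Of 18 genes of dopamine synthesis and handling tested, 7 fell, the genes of storage, uptake and the first step of synthesis among them, and 11 were not called. Slc18a2 (chromosome 19, 59260878 to 59296012), the vesicular monoamine transporter that loads dopamine into vesicles, was at 1729.6 to 2817 CPM (median 2127) in wt and 643 to 853 CPM (median 713) in mutants. Slc6a3 (chromosome 13, 73536128 to 73578672), the transporter that takes dopamine back up, was at 1923 to 3242 CPM (median 2925) in wt and 879 to 1533 CPM (median 1054) in mutants. Th (chromosome 7, 142892779 to 142899995), tyrosine hydroxylase, the rate-limiting enzyme of dopamine synthesis, was at 1004 to 2147 CPM (median 1718) in wt and 595 to 875 CPM (median 716) in mutants. For each of the 3 genes the highest mutant lay below the lowest wt library, and the wt library nearest to the mutants was C250 for Th and Slc6a3. The log2 fold changes were -1.49 (SE 0.10, adjusted p = 8.64e-15), -1.40 (SE 0.14, adjusted p = 8.5e-10) and -1.22 (SE 0.12, adjusted p = 2.17e-09), in the same order. In bulk RNA, fewer dopaminergic cells in a sort and less of such RNA per cell cannot be told apart. Set1 and set2, fitted apart, gave -1.41 and -1.13 for Th and -1.45 and -1.59 for Slc18a2.

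The 250 bases before the start of these 3 genes are shown from RefSeq (GRCm38.p6), 5′ to 3′ on the gene's own strand with each CG pair in capitals, because PRC2 is known for its link to CG-rich promoters. For Slc6a3, as for Gad1 and Slc32a1 further on, the start used lies within the gene's outermost annotated span.
Th (chr7:142899996-142900245, minus strand): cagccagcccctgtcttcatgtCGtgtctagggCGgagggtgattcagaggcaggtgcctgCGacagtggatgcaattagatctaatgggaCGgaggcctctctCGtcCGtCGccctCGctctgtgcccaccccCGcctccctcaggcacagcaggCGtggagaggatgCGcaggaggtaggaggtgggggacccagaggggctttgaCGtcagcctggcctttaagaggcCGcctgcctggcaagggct
Slc6a3 (chr13:73536497-73536746, plus strand): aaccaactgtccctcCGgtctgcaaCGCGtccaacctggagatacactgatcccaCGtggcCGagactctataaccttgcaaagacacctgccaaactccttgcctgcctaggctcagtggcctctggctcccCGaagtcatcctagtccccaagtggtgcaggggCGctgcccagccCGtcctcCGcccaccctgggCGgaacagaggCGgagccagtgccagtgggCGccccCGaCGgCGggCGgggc
Slc18a2 (chr19:59260628-59260877, plus strand): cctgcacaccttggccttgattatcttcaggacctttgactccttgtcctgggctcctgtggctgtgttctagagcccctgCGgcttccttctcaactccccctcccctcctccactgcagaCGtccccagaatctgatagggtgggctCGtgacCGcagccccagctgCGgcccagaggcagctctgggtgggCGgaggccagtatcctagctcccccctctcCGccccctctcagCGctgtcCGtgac
The 3 stretches hold 13, 16 and 9 CG pairs, against a median of 6 over 32851 promoters of the same length (quartiles 2 and 16). The letters AAAGGTCA, the site to which NR4A factors are known to bind, were searched on both strands. They occur in none of the 3 stretches and in 1.34% of the 32851 promoters. Promoters of a single chromosome were left out of the 32851.

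Of the other genes of dopamine synthesis and handling, Ddc, which turns L-DOPA into dopamine, was at 563 to 882 CPM (median 717) in wt and 457 to 666 CPM (median 521) in mutants, and was not called (log2 fold change -0.37, SE 0.13, adjusted p = 0.109). The ranges of wt and mutants overlapped. Aldh1a1, an aldehyde dehydrogenase of ventral nigral neurons, was at 281 to 751 CPM (median 410.1) in wt and 88.3 to 494 CPM (median 186.8) in mutants (log2 fold change -1.04, SE 0.27, adjusted p = 0.0173). Here 1 mutant, D170, stood at 494 CPM, above the wt median. Drd2, the dopamine autoreceptor, fell (-0.61, adjusted p = 0.0187), as did Slc10a4, a vesicle protein of monoamine neurons (-0.64, adjusted p = 0.00526), and Aldh1a7 (-1.75, adjusted p = 0.0273). Of the 18 genes of this list 0 rose, 8 of the 18 estimates were above 0, and the list's median log2 fold change was -0.36, against 0.02 over all genes tested. When D161, D170 and D176 were left out, 5 of the 7 were called, while Drd2 (-0.55, adjusted p = 0.0888) and Slc10a4 (-0.50, adjusted p = 0.0835) were not. Called in every one of the 23 alternative fits were 3 of the 7: leaving out C42 or D147 ended the call of Aldh1a1, leaving out C45, D107 or D147 that of Drd2, and leaving out C45, D265 or D276 that of Aldh1a7.

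Of 17 transcription factors of dopaminergic neurons tested 7 fell and 0 rose, and 0 of the 17 estimates were above 0 (median -0.64). En1 (chromosome 1, 120602487 to 120607991), a homeobox factor needed for the survival of these neurons, was at 88.1 to 158 CPM (median 116) in wt and 31.3 to 55.4 CPM (median 38.0) in mutants (log2 fold change -1.54, SE 0.16, adjusted p = 2.17e-09). Pitx3 (chromosome 19, 46135281 to 46148325), a homeobox factor of nigral neurons, was at 8.15 to 19.5 CPM (median 13.2) in wt and 2.48 to 8.22 CPM (median 4.34) in mutants (log2 fold change -1.56, SE 0.35, adjusted p = 0.00371). Nr4a2 (chromosome 2, 57106830 to 57124003), the nuclear receptor NURR1 that drives Th and Slc6a3 in development, was at 142 to 251 CPM (median 204) in wt and 116 to 168 CPM (median 143) in mutants (log2 fold change -0.53, SE 0.15, adjusted p = 0.0271). Groups were apart for En1, overlapped by 1 library on each side for Pitx3, and overlapped for Nr4a2. Pbx3, a HOX cofactor of the TALE class, was lower in every mutant than in any wt library (-0.84, adjusted p = 0.000116). Ebf3 (-0.92) and Satb1 (-0.70) were also among the 7. In other lists, Pou3f2, a neuronal POU factor (-1.47, adjusted p = 4.15e-08), and the forkhead factor Foxp2 (-0.87, adjusted p = 2.02e-05) were likewise lower in every mutant than in any wt library. All 7 dopaminergic factors were called again without D161, D170 and D176, and 4 of the 7 in every one of the 23 alternative fits. Without the term for sex Nr4a2 (adjusted p = 0.177) and Satb1 (adjusted p = 0.128) were not called, and Nr4a2 was also not called when C51 or D265 was left out.

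Markers of the substantia nigra type of dopaminergic neuron, the type lost first in Parkinson's disease, fell in 7 of 12 tested genes (median -0.79), while those of the ventral tegmental type had 1 higher and 1 lower of 16 (median 0.03). Anxa1, which marks a ventral nigral subset, was at 16.04 to 43.4 CPM (median 23.4) in wt and 0.225 to 16.6 CPM (median 4.85) in mutants (log2 fold change -2.48, SE 0.49, adjusted p = 0.00109). Igf1, a growth factor, was at 52.3 to 111 CPM (median 70.2) in wt and 20.9 to 48.1 CPM (median 26.3) in mutants (log2 fold change -1.23, SE 0.18, adjusted p = 4.82e-06). Ndnf, a secreted neurite growth factor, was at 13.7 to 56.2 CPM (median 33.4) in wt and 10.2 to 15.9 CPM (median 13.96) in mutants (log2 fold change -1.38, SE 0.25, adjusted p = 0.000282). All mutants lay below all wt libraries for Igf1, while for Anxa1 and Ndnf the highest mutants reached past the lowest wt library. Kcnj6, the GIRK2 potassium channel of nigral neurons (-0.83, adjusted p = 0.00674), and Kcns3, a silent potassium channel subunit (-0.74, adjusted p = 0.00621), fell too. These 2 were not called without D161, D170 and D176 (-0.73, adjusted p = 0.0516, and -0.46, adjusted p = 0.0998). Aldh1a1 and Satb1 stand in this list and in one above, and 4 of the 7 genes were called in every one of the 23 alternative fits. Of the ventral tegmental markers Calb2, the calcium buffer calretinin, was at 69.4 to 173 CPM (median 107.3) in wt and 150.4 to 264 CPM (median 213.7) in mutants (log2 fold change 1.22, SE 0.28, adjusted p = 0.00542), and Crhr1, the receptor of corticotropin-releasing hormone, fell (-0.67, adjusted p = 0.0169). Kcns3, Calb2 and Crhr1 were among the genes not called without the term for sex (adjusted p = 0.0696, 0.202 and 0.315), and Crhr1 was not called when D147 was left out. Whether the 2 lists differ from each other was not tested.

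Of 8 genes of inhibitory transmission tested 4 rose and 0 fell (median 0.67). Gad1 (chromosome 2, 70561303 to 70602014), which makes GABA, the main inhibitory transmitter, was at 24.3 to 77.3 CPM (median 35.6) in wt and 211 to 378 CPM (median 278) in mutants (log2 fold change 2.76, SE 0.23, adjusted p = 6.85e-12). Slc32a1 (chromosome 2, 158607260 to 158615747), which loads GABA and glycine into vesicles, was at 11.7 to 26.97 CPM (median 17.1) in wt and 43.2 to 79.0 CPM (median 61.5) in mutants (log2 fold change 1.88, SE 0.24, adjusted p = 3.53e-07). Slc6a5, the glycine transporter of glycinergic neurons, was at 0 to 3.50 CPM (median 0.850) in wt and 44.4 to 143 CPM (median 85.7) in mutants (log2 fold change 6.09, SE 0.48, adjusted p = 1.62e-12). In these 3 genes every mutant was above every wt library, while Gad2, the second GABA-making enzyme, was at 65.0 to 185 CPM (median 114) in wt and 118 to 263 CPM (median 150.0) in mutants with overlapping groups (log2 fold change 0.72, SE 0.19, adjusted p = 0.0174). Gad2 was thus well expressed in wt, and Slc6a5 was close to 0 there. All 4 were called without D161, D170 and D176, and 3 of the 4 in every one of the 23 alternative fits. The exception was Gad2, which was not called without the term for sex (adjusted p = 0.158), without the set term, with the 16 libraries alone, or when C45 or D107 was left out.

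**Figure D2:**
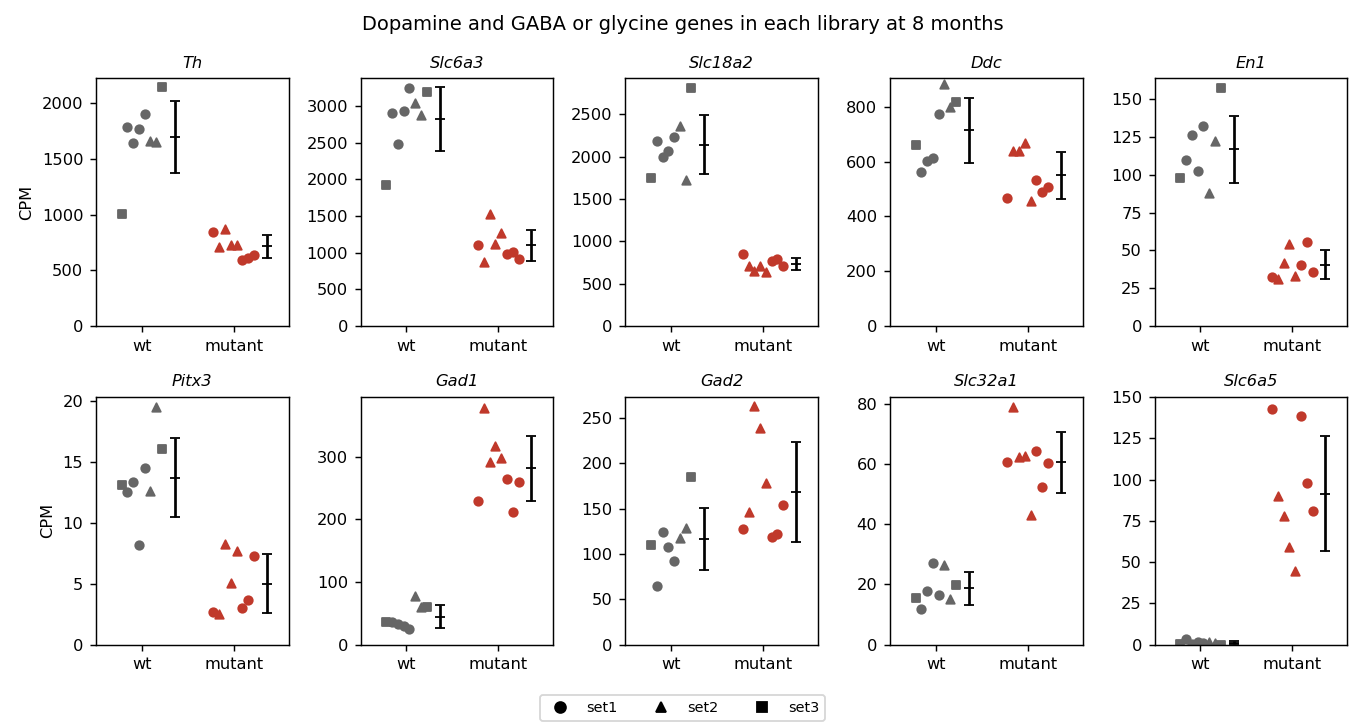
CPM (y axis, from 0) in each of the 8 wt (grey) and 8 mutant (red) libraries at 8 months, with the mark giving the sequencing set and the black bar the mean and SD of each group. Points are spread sideways only for legibility. Th, Slc6a3, Slc18a2 and En1 are lower in all mutants than in any wt library, Gad1, Slc32a1 and Slc6a5 are higher in all mutants, and Ddc, Pitx3 and Gad2 overlap.

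The stretches before Gad1 and Slc32a1 are shown in the same way, with that of Shox2, a homeobox gene described below, since all 3 genes rose.
Gad1 (chr2:70561879-70562128, plus strand): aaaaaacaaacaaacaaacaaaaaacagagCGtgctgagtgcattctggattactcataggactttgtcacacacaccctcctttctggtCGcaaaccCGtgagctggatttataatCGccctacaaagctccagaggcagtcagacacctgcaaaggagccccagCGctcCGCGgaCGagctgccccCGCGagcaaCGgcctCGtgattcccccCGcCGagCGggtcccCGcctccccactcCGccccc
Slc32a1 (chr2:158610508-158610757, plus strand): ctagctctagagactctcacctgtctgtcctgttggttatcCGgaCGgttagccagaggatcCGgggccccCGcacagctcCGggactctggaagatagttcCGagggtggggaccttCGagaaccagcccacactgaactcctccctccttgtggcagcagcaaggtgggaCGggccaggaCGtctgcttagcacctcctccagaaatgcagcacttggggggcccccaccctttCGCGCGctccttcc
Shox2 (chr3:66981772-66982021, minus strand): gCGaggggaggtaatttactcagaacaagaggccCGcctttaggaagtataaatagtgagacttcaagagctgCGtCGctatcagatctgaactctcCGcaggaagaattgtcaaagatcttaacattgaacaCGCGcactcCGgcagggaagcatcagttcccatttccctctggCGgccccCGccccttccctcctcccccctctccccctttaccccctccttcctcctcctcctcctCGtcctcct
They hold 17, 12 and 11 CG pairs. The letters TATAAA, searched on both strands, occur in the stretches of Gad1 and Shox2 and in 12.4% of the promoters counted above. TAATCC, a core site of PITX factors, occurs in that of Gad1 and in 6.25% of those promoters.

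Of 6 glutamate genes tested 1 fell and 0 rose. Of 9 serotonergic genes tested Gata2 and Fev rose and 0 fell. Fev, the serotonergic factor PET1, was at 0 to 3.50 CPM (median 0.294) in wt and 1.34 to 16.7 CPM (median 5.04) in mutants (log2 fold change 2.69, SE 0.80, adjusted p = 0.0404), with overlapping groups and no call without D161, D170 and D176 (1.90, adjusted p = 0.201). Tph2, which makes serotonin, was at 1.28 to 27.5 CPM (median 3.15) in wt and 1.67 to 10.4 CPM (median 5.29) in mutants (no call, log2 fold change 0.17, adjusted p = 0.926), and Slc6a4, the serotonin transporter, at 0 to 3.79 CPM (median 1.82) in wt and 0 to 3.72 CPM (median 1.86) in mutants (log2 fold change -0.30, adjusted p = 0.891). Of 4 noradrenergic and cholinergic genes tested 2 rose and 0 fell, 1 of them not called without D161, D170 and D176. Ache, which breaks down acetylcholine, rose (0.49, adjusted p = 0.0193), but not without the term for sex (adjusted p = 0.0622).

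Every one of the 22 HOX genes that could be tested rose, of 39 in the table, with a median log2 fold change of 5.95. Only genes with enough counts in enough libraries were tested. With wt so close to 0, HOX genes met this mainly through mutant libraries. The share of 22 of 22 and the median are thus in large part set by that filter. The cluster sums below take in all 39 genes. HOX genes encode the homeobox factors that set position along the body axis and are normally silent in the midbrain. Summed over the cluster, Hoxd genes were at 0.205 to 12.5 CPM in wt (median 3.38) and 98.7 to 323 in mutants (median 185.6), Hoxc genes at 1.14 to 19.6 (2.04) and 49.05 to 190 (126), Hoxa genes at 1.23 to 11.3 (3.81) and 57.5 to 160 (106), and Hoxb genes at 0 to 8.91 (1.84) and 33.1 to 114 (60.9). The lowest mutant was above the highest wt library in each cluster. The sum over all 39 genes was 5.72 to 15.7 CPM in 7 wt libraries and 52.3 in C250, the shallowest. In mutants it was 476 to 770 CPM in set1 and 239 to 457 in set2, so that each set1 mutant was above each set2 mutant. All 22 were called without D161, D170 and D176, and 20 in every one of the 23 alternative fits.

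Single HOX genes showed the same separation at different heights. Hoxd10 was the most abundant in mutants, at 0 to 4.16 CPM (median 1.19) in wt and 33.1 to 105 CPM (median 61.5) in mutants (log2 fold change 5.21, SE 0.69, adjusted p = 2.38e-06). Hoxc8 was at 0 to 1.46 CPM (median 0.230) in wt and 19.4 to 89.4 CPM (median 48.6) in mutants, and Hoxa10 at 0.0833 to 2.38 CPM (median 0.421) in wt and 14.1 to 32.8 CPM (median 24.1) in mutants. In Hoxd10, Hoxc8 and Hoxa10 no mutant came near a wt library. Hoxd11 was at 0 to 0.209 CPM (median 0.0833) in wt and 21.7 to 52.9 CPM (median 36.7) in mutants (log2 fold change 7.52, SE 0.60, adjusted p = 4.49e-12) and Hoxd4 at 0 to 1.19 CPM (median 0.339) in wt and 15.6 to 88.6 CPM (median 32.8) in mutants. Hoxc6 and Hoxd13 had overlapping groups, because C250 stood at 11.3 and 5.35 CPM. In the 6 wt libraries of set1 and set2, on which the fit rests, both had 0 counts, so only a lower bound can be given. Against a floor of 3 counts over these 6 libraries Hoxc6, with 979 counts in mutants, was at least 214.4-fold higher and Hoxd13, with 513, at least 112-fold higher (adjusted p = 7.53e-07 and 4.82e-05). The median over the 22 HOX genes is 5.95 also with these 2 at their bound. Where wt had almost no counts the ratio of counts is the sounder value. It is taken over all 8 wt libraries, set3 included, unlike the bounds above. Hoxa3 had 3 counts in wt and 961 in mutants, a ratio of 232 per count sequenced (95% counting interval 79.0 to 1125), and Hoxd8 had 1 and 556, a ratio of 402 (71.9 to 15906). Of the 17 HOX genes too low to be tested, 16 had a higher mean in mutants. Among them Hoxb9 and Hoxb13 were still above every wt library in every mutant, at medians of 8.59 and 7.22 CPM, and Hoxd1 alone had fewer counts in mutants (1) than in wt (6). Genes of a HOX cluster and its antisense RNAs overlap, and no source used here gives the strand setting of the counting, so reads of overlapping HOX transcripts cannot be told apart.

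**Figure D3:**
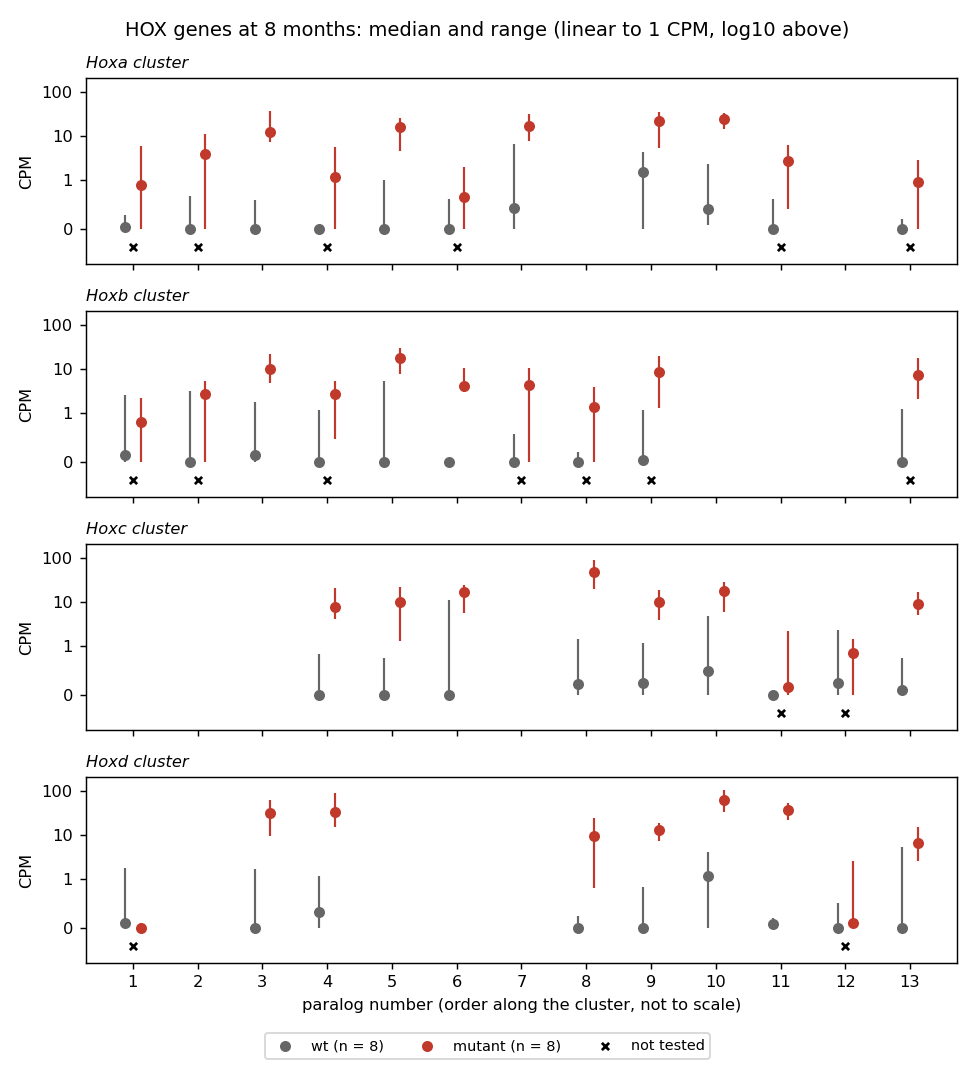
CPM of each HOX gene in the 8 wt (grey) and 8 mutant (red) libraries at 8 months, as the median (point) and the lowest to highest library (line), ordered by paralog number along each cluster, with a y axis that is linear to 1 CPM and log10 above and a cross under genes too low to be tested. Mutant medians reach 61.5 CPM for Hoxd10, and stay at or under 4 CPM for the paralogs 1 and 2 that are in the table.

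Developmental factors outside the HOX clusters rose in 57 and fell in 2 of 152 tested members of 10 families (median 1.72). Foxp2 and Pou3f2 were the 2 that fell, and 36 of the 57 were under 1 CPM in wt. Genes that low in wt could be tested mainly through mutant libraries. The shares and the median are thus in part set by the filter on low counts. Another 105 members in the table were too low to be tested, and 63 of them had a higher mean in mutants. In 45 of the 152 every mutant was above every wt library, where 0.875% of all tested genes were so separated. That count too is in part set by the filter. By family the tested genes that rose were 7 of 10 DLX and NKX, 7 of 11 T-box, 3 of 5 PAX, 15 of 26 PITX, SHOX and other homeobox, 5 of 11 LIM homeobox, 3 of 8 IRX and ZIC, 4 of 13 POU and ONECUT, 7 of 26 forkhead, 4 of 23 bHLH and 2 of 19 SOX and GATA factors. Of the 57, 36 were called in every one of the 23 alternative fits. Without D161, D170 and D176, 0 of the 3 IRX and ZIC genes and 1 of the 2 SOX and GATA genes were called, the other families losing at most 1 gene each.

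**Figure D4:**
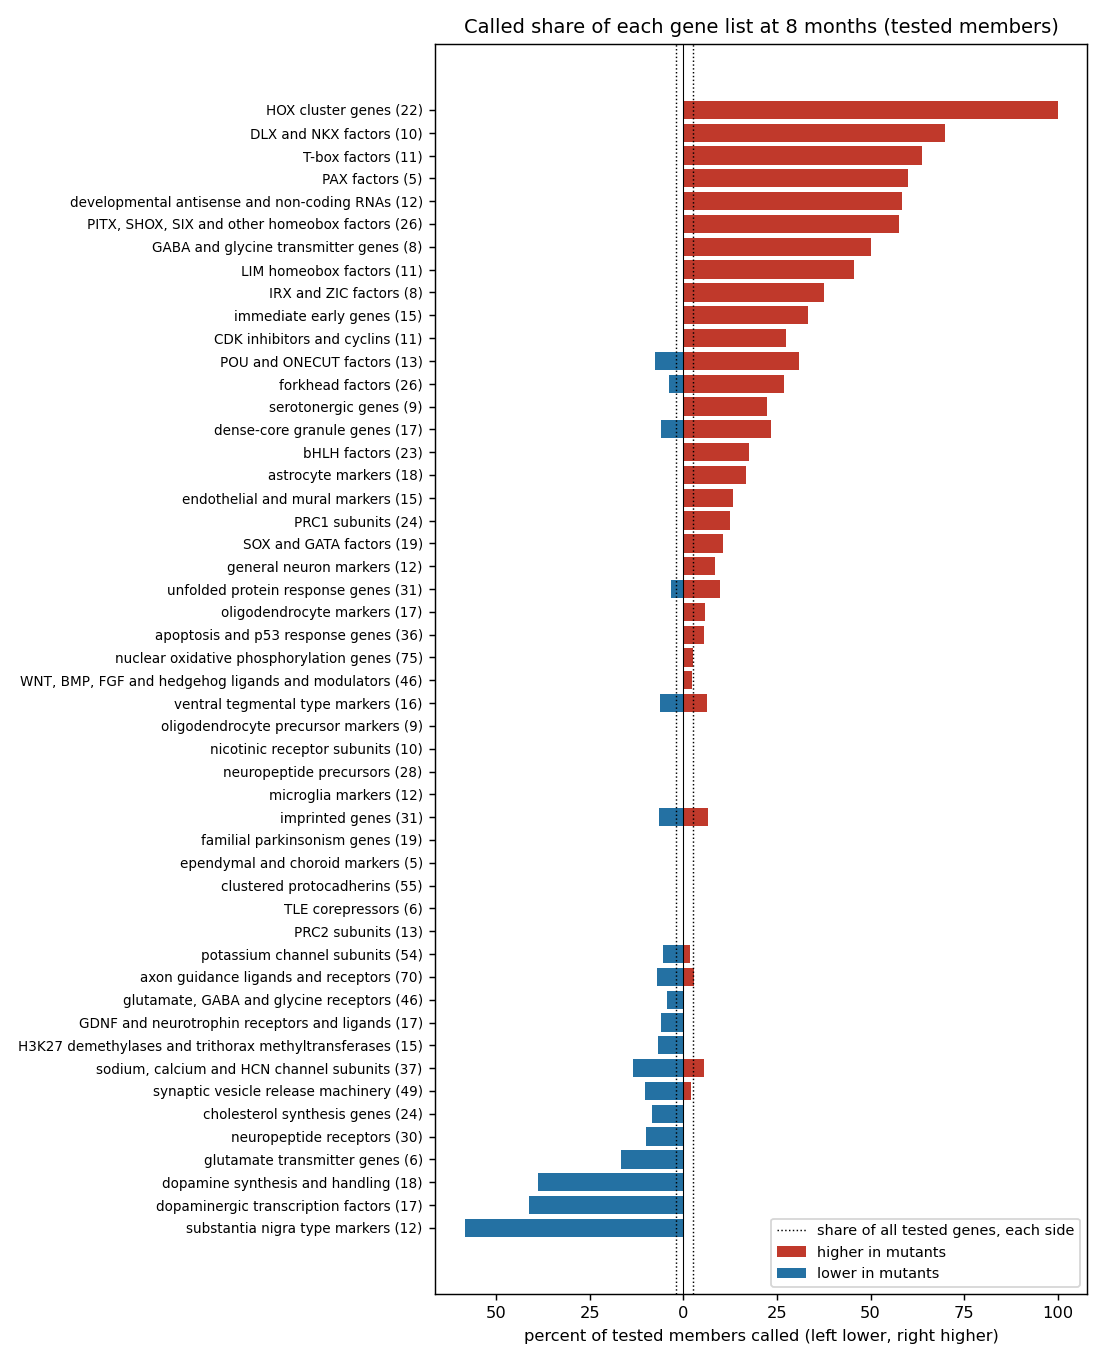
For each gene list with at least 5 tested members (their number in brackets), the percent of tested members that were higher (red, to the right) and lower (blue, to the left) in mutants at 8 months; dotted lines mark the shares over all tested genes, 2.44% and 1.88%. HOX genes reach 100% on the right, and substantia nigra type markers reach 58.3% on the left.

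Several of these factors reached levels well above 10 CPM. Pax6, a regulator of eye and neural progenitors, was at 3.16 to 14.3 CPM (median 5.75) in wt and 54.9 to 113 CPM (median 81.2) in mutants (log2 fold change 3.92, SE 0.33, adjusted p = 1e-11). Onecut2, a cut-homeobox factor, was at 10.02 to 33.3 CPM (median 22.2) in wt and 86.9 to 172 CPM (median 133) in mutants (log2 fold change 2.52, SE 0.25, adjusted p = 7.37e-10). Shox2, a homeobox factor of limb, heart and hindbrain, was at 1.19 to 9.58 CPM (median 7.34) in wt and 37.1 to 70.5 CPM (median 52.3) in mutants (log2 fold change 2.93, SE 0.30, adjusted p = 1.94e-09). For Pax6, Onecut2 and Shox2 the lowest mutant was more than 2-fold above the highest wt library. Isl1, a LIM factor of motor and sensory neurons, was at 0 to 6.005 CPM (median 3.12) in wt and 25.7 to 40.9 CPM (median 32.8) in mutants (log2 fold change 3.20, SE 0.56, adjusted p = 0.000148), and Tbx3, a T-box repressor of limb and heart, at 0 to 6.54 CPM (median 1.09) in wt and 18.3 to 44.5 CPM (median 25.7) in mutants (log2 fold change 5.11, SE 0.59, adjusted p = 4.43e-08). Gata2, a factor of blood and of GABAergic midbrain neurons, was at 0.256 to 4.29 CPM (median 2.25) in wt and 20.6 to 34.6 CPM (median 24.9) in mutants (log2 fold change 3.36, SE 0.48, adjusted p = 4.48e-06). All mutants were above all wt libraries for Isl1, Tbx3 and Gata2, and the highest wt library for Tbx3 was C250.

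Others came from almost nothing. Foxf1, a forkhead factor of mesoderm, was at 0 to 1.36 CPM (median 0.309) in wt and 14.5 to 39.1 CPM (median 20.6) in mutants, and Pitx1, which sets hindlimb identity, at 0 to 0.875 CPM (median 0) in wt and 14.9 to 29.9 CPM (median 20.7) in mutants. Barx1, a homeobox factor of jaw and stomach, was at 0 to 1.25 CPM (median 0.199) in wt and 9.13 to 33.2 CPM (median 18.9) in mutants. In Foxf1, Pitx1 and Barx1 all 8 mutants exceeded all 8 wt libraries, with log2 fold changes of 4.87, 6.13 and 5.13 and adjusted p-values of 4.36e-07, 5.07e-08 and 9.63e-07 in that order. Twist1, a bHLH factor of mesenchyme (3.81), Dlx6 of forebrain interneurons (4.20), Lhx6 (4.70) and Lhx2 (4.69), Nkx2-1 (5.36), Tbx5 (4.63) and Tbr1 (4.38) were separated in the same way. Hand2, a bHLH factor of heart and sympathetic neurons, had 1 count over all 8 wt libraries and 557 in mutants. The ratio was 403 (95% counting interval 72.0 to 15934).

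Non-coding RNAs of developmental loci rose in 7 of 12 tested (0 lower, median 3.21), and all 7 were called in every one of the 23 alternative fits. The list has 17 members in the table, and its share too is in part set by the filter on low counts. Vax2os was at 0 to 4.16 CPM (median 0.997) in wt and 72.7 to 359.5 CPM (median 166) in mutants (log2 fold change 7.80, SE 0.44, adjusted p = 6.64e-17). Six3os1 was at 0.291 to 8.70 CPM (median 4.23) in wt and 48.8 to 80.5 CPM (median 61.5) in mutants (log2 fold change 3.77, SE 0.50, adjusted p = 9.45e-07), and Hoxa11os at 0 to 0.583 CPM (median 0) in wt and 5.93 to 48.3 CPM (median 25.2) in mutants (log2 fold change 7.51, SE 0.71, adjusted p = 4.78e-10). Dleu2, the host transcript of the miR-15a and miR-16-1 hairpins, was at 0.229 to 2.97 CPM (median 1.25) in wt and 8.42 to 21.5 CPM (median 15.7) in mutants (log2 fold change 3.72, SE 0.47, adjusted p = 3.9e-07). The lowest mutant was above the highest wt library for Vax2os, Six3os1, Hoxa11os and Dleu2. Vax2os, Six3os1 and Hoxa11os lie antisense to or beside homeobox genes, so without the strand their reads cannot be told apart from those of an overlapping partner.

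Among genes of the Polycomb machinery 0% of PRC2 and 12.5% of PRC1 subunits were higher, against 2.44% of all tested genes. Of demethylases and trithorax methyltransferases 6.67% were lower, against 1.88%. Of 13 PRC2 subunits tested edgeR and DESeq2 each called 0 (median -0.04), and 4 had an unadjusted p under 0.05, 1 higher and 3 lower. Of 24 PRC1 subunits tested 3 rose. Cbx8 (1.46, adjusted p = 0.0103) encodes a reader of the PRC2 mark, and Pcgf1 encodes the subunit that defines a variant PRC1. Pcgf1 was at 14.7 to 46.3 CPM (median 22.2) in wt and 40.5 to 98.0 CPM (median 76.6) in mutants (log2 fold change 1.54, SE 0.23, adjusted p = 8.95e-06), and 1 wt library, C47, at 46.3 CPM, was above the lowest mutant. Of 15 demethylases of the mark and trithorax methyltransferases, Kmt2b alone fell (-0.59, adjusted p = 0.0444). Neither Cbx8 nor Kmt2b was called without the term for sex (adjusted p = 0.0509 and 0.324).

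Of 11 CDK inhibitors and cyclins tested 3 rose and 0 fell. Ccnd2, cyclin D2, was at 2.23 to 27.3 CPM (median 6.75) in wt and 30.6 to 94.1 CPM (median 72.0) in mutants (log2 fold change 3.37, SE 0.30, adjusted p = 4.64e-11), where the highest wt library was C250 and the lowest mutant D176. Ccnd1, cyclin D1, was at 2.32 to 10.8 CPM (median 7.68) in wt and 9.86 to 33.3 CPM (median 20.02) in mutants (log2 fold change 1.51, SE 0.36, adjusted p = 0.00854). Cdkn2b, the CDK inhibitor p15, was at 0 to 1.53 CPM (median 0.433) in wt and 4.46 to 21.0 CPM (median 11.1) in mutants (log2 fold change 5.18, SE 1.03, adjusted p = 0.000825). The mutants were wholly above wt for Ccnd2 and Cdkn2b and overlapped for Ccnd1. Cdkn2a, which encodes p16 and p19ARF, was too low to be tested, at 0 to 0.594 CPM (median 0.0484) in wt and 0.156 to 5.97 CPM (median 2.79) in mutants, and Cdkn1a, the p53 target p21, was at 2.30 to 17.2 CPM (median 6.80) in wt and 2.54 to 11.4 CPM (median 5.11) in mutants (log2 fold change -0.25, adjusted p = 0.808). Of 36 genes of apoptosis and the p53 response tested 2 rose (5.56%, where 2.44% of all tested genes did) and 0 fell. The 2 that rose act in opposite ways. Bcl2l1, which encodes the survival protein BCL-XL, was at 17.2 to 48.9 CPM (median 34.1) in wt and 44.7 to 83.7 CPM (median 64.9) in mutants (log2 fold change 1.25, SE 0.21, adjusted p = 7.98e-05), and Pmaip1, the death-promoting NOXA, at 0 to 4.18 CPM (median 0.814) in wt and 3.22 to 21.0 CPM (median 12.1) in mutants (log2 fold change 4.00, SE 0.84, adjusted p = 0.00186). Both had overlapping groups with higher medians in mutants.

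Among the genes of excitability a few of many moved. Of potassium channel subunits 1.85% were higher and 5.56% lower, and of sodium, calcium and HCN subunits 5.41% and 13.5%. Over all tested genes the shares were 2.44% and 1.88%. Of 54 potassium channel subunits tested 3 fell (Kcns3, Kcnj6 and Kcnn3) and 1 rose. The gene that rose, Kcnf1, a silent subunit, was at 1.42 to 12.9 CPM (median 3.86) in wt and 17.4 to 39.4 CPM (median 24.1) in mutants (log2 fold change 2.27, SE 0.52, adjusted p = 0.00537), with all mutants above all wt libraries. When the 3 set2 males D161, D170 and D176 were left out none of the 3 that fell was called. Of 37 sodium, calcium and HCN channel subunits 5 fell and 2 rose. Scn3a, the sodium channel Nav1.3, was at 487 to 707 CPM (median 603) in wt and 325 to 497 CPM (median 386) in mutants (log2 fold change -0.63, SE 0.11, adjusted p = 6.49e-05). Cacna1a, the P/Q-type calcium channel of nerve terminals, was at 119.6 to 286 CPM (median 225.6) in wt and 87.2 to 143 CPM (median 100.2) in mutants (log2 fold change -0.89, SE 0.20, adjusted p = 0.00424). Both had overlapping groups, with most mutants below the lowest wt library. Cacna1e (-0.54) and Cacnb4 (-0.55) fell too, and Cacng5 (1.29) and Scn2b (0.81) rose. Of these channel genes Kcns3, Kcnn3, Cacna1a, Cacna1e, Cacnb4, Cacng5 and Scn2b were not called without the term for sex.

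Few receptors were called. Of peptide receptors 10% and of glutamate, GABA and glycine receptors 4.35% were lower, against 1.88% of all tested genes. Of 30 peptide receptors tested 3 fell and 0 rose. Oprk1, the kappa opioid receptor that restrains dopamine release, was at 141 to 243 CPM (median 169) in wt and 55.6 to 129.97 CPM (median 81.8) in mutants (log2 fold change -1.13, SE 0.17, adjusted p = 1.51e-05). Ntsr1, the neurotensin receptor of dopaminergic neurons, was at 99.3 to 194 CPM (median 140.3) in wt and 58.1 to 83.7 CPM (median 66.4) in mutants (log2 fold change -0.92, SE 0.15, adjusted p = 6.39e-05). Gria3, an AMPA-type glutamate receptor subunit, was at 232 to 350.1 CPM (median 322) in wt and 105 to 222 CPM (median 190.1) in mutants (log2 fold change -0.83, SE 0.14, adjusted p = 0.000133). All 8 mutants were below all 8 wt libraries for Oprk1, Ntsr1 and Gria3. Gria3 and Grik5, a kainate receptor subunit (-0.73, and not called without D161, D170 and D176, adjusted p = 0.0708), were the 2 called of 46 glutamate, GABA and glycine receptor genes tested. Of 10 nicotinic receptor subunits edgeR and DESeq2 each called 0, with 3 lower at an unadjusted p under 0.05. Grik5 was not called without the term for sex either. Of 28 neuropeptide precursors edgeR called 0 and DESeq2 2, and 3 were higher at an unadjusted p under 0.05.

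At the presynapse a few active zone and fusion genes fell and a few granule proteins rose. Of vesicle release genes 2.04% were higher and 10.2% lower, and of granule genes 23.5% and 5.88%. Axon guidance genes had 2.86% and 7.14%, against 2.44% and 1.88% of all tested genes. Of 49 genes of vesicle release tested 5 fell and 1 rose. Cplx1, complexin 1, which clamps and triggers fusion, was at 387 to 1167 CPM (median 625) in wt and 213.1 to 389 CPM (median 316) in mutants (log2 fold change -1.01, SE 0.18, adjusted p = 0.000148), the highest mutant just passing the lowest wt library. Erc2, an active zone scaffold, was at 526 to 765 CPM (median 675) in wt and 292 to 510.1 CPM (median 409) in mutants (log2 fold change -0.82, SE 0.16, adjusted p = 0.000883), wholly below wt. Sv2c, a vesicle protein of basal ganglia neurons, was at 36.8 to 146 CPM (median 49.7) in wt and 16.9 to 36.2 CPM (median 28.0) in mutants (log2 fold change -0.96, SE 0.24, adjusted p = 0.0139), also wholly below wt, but was not called without D161, D170 and D176 (-0.66, adjusted p = 0.158). Bsn, the active zone scaffold bassoon (-0.56), and Unc13b (-0.71) completed the 5, and Syp, synaptophysin, rose (0.73, adjusted p = 0.0232). The list's median was 0.12, above 0 although more of its called members fell. Of 17 dense-core granule genes 4 rose and 1 fell. Chga, chromogranin A, a core protein of these granules, was at 57.6 to 167 CPM (median 134) in wt and 234 to 387 CPM (median 291) in mutants (log2 fold change 1.204, SE 0.17, adjusted p = 2.99e-06), with no overlap. Chgb (0.81), Pcsk1n (0.72) and Scg3 (0.66) rose with overlapping groups, and Cadps2, which primes granules for release, was lower in every mutant (-0.83, adjusted p = 0.0007). Within set2 alone the estimates for Pcsk1n and Scg3 were 0.05 and -0.03. Of 70 genes of axon guidance 5 fell and 2 rose. Sema4g (-0.89), the netrin receptors Unc5c (-0.79) and Neo1 (-0.53), and the ephrin receptors Epha10 (-0.59) and Epha5 (-0.45) fell, with all mutants below all wt libraries for Neo1, and Sema4d (0.81) and Sema3c (3.89, adjusted p = 0.143 without D161, D170 and D176) rose. Bsn, Unc13b, Syp, Chgb, Pcsk1n, Scg3, Epha10 and Sema4d were not called without the term for sex.

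Few genes of protein folding and energy supply were called. Of unfolded protein response genes 9.68% were higher and 3.23% lower, and of oxidative phosphorylation genes 2.67% and 0%. Over all tested genes the shares were 2.44% and 1.88%. Derl3, a factor of protein degradation at the endoplasmic reticulum, was at 2.91 to 11.8 CPM (median 7.54) in wt and 0 to 1.34 CPM (median 0.196) in mutants (log2 fold change -4.27, SE 0.59, adjusted p = 2.4e-06), with every mutant below every wt library. It was the 1 lower gene of 31 in the unfolded protein response, where Hsp90b1 (0.60), Pdia4 (0.87) and Pdia3 (0.83) rose. Of 75 nuclear genes of oxidative phosphorylation 2 rose, Atp5a1 (0.57, adjusted p = 0.0383) and Atp5b (0.62, adjusted p = 0.0392), while 73 of the 75 estimates were above 0 (median 0.33). Their summed level was 4783 to 6744 CPM in the 6 wt libraries of set1 and set3 and 8542 and 10490 in the 2 of set2, and 6012 to 8077 in the mutants of set1 and 8464 to 9425 in those of set2. Both genotypes were thus higher in set2 than in set1, and within set2 both wt libraries lay inside or above the range of the mutants. Within set2 alone the estimates for Atp5a1 and Atp5b were 0.15 and -0.03. Without D161, D170 and D176 the calls were 15 for oxidative phosphorylation, 9 for dense-core granules and 8 for the unfolded protein response, all upward, against 2, 4 and 3. Without the term for sex Hsp90b1, Pdia4, Pdia3, Atp5a1 and Atp5b were not called. Of 24 genes of cholesterol synthesis Lss (-0.76) and Fdps (-0.65, adjusted p = 0.336 without D161, D170 and D176) fell. Of 17 genes of GDNF and neurotrophin signalling Igf1 alone was called. Of 19 genes of familial parkinsonism, 55 clustered protocadherins and 6 TLE corepressors, edgeR and DESeq2 each called 0, with 3, 6 and 1 at an unadjusted p under 0.05.

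Immediate early genes, which neurons switch on within minutes of activity, rose in 5 of 15 tested (33.3%, against 2.44% of all tested genes). Their median log2 fold change was 1.31, and their summed level was 110 to 202 CPM in wt and 266 to 445 in mutants. Fos was at 0.594 to 12.8 CPM (median 8.29) in wt and 30.3 to 65.8 CPM (median 37.0) in mutants (log2 fold change 2.15, SE 0.61, adjusted p = 0.033), Egr1 at 0.594 to 13.6 CPM (median 6.07) in wt and 15.0 to 46.3 CPM (median 26.5) in mutants (log2 fold change 1.76, SE 0.42, adjusted p = 0.00667) and Nr4a1 at 10.99 to 42.5 CPM (median 18.9) in wt and 13.8 to 67.7 CPM (median 53.1) in mutants (log2 fold change 1.31, SE 0.30, adjusted p = 0.00488). All mutants exceeded all wt libraries for Fos and Egr1. Dusp1 (0.96) and Arc (1.49) were the others. Dusp1 and Arc were not called without the term for sex. Without D161, D170 and D176 only Arc was called, with 2.08 for Fos (adjusted p = 0.104) and 1.53 for Egr1 (adjusted p = 0.059). Of 46 ligands and modulators of WNT, BMP, FGF and hedgehog signalling 1 was called, Wnt5a. That share of 2.17% is near the 2.44% of all tested genes that rose, so nothing is read about the family. Wnt5a, a non-canonical WNT, was at 20.2 to 55.0 CPM (median 43.8) in wt and 92.1 to 155 CPM (median 125) in mutants (log2 fold change 1.68, SE 0.20, adjusted p = 9.28e-08), without overlap. Of 31 imprinted genes 2 rose and 2 fell (6.45% each way, against 2.44% and 1.88% of all tested genes). Rasgrf1, a Ras activator, was at 65.9 to 169 CPM (median 118) in wt and 240.3 to 367.1 CPM (median 297) in mutants (log2 fold change 1.202, SE 0.15, adjusted p = 3.12e-07), without overlap, and Igf2 at 0.209 to 5.41 CPM (median 1.90) in wt and 1.48 to 49.2 CPM (median 12.8) in mutants (log2 fold change 2.76, SE 0.70, adjusted p = 0.0136), while Peg3 (-0.47) and Mirg (-0.51) fell, neither of them called without the term for sex. Igf2 was not called without D161, D170 and D176 (2.01, adjusted p = 0.208).

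Markers of other cell types were called in a few cases. Apoe, a lipid carrier of astrocytes, was at 16.04 to 127 CPM (median 66.3) in wt and 103 to 957 CPM (median 167) in mutants (log2 fold change 1.63, SE 0.33, adjusted p = 0.00201), with its highest values in D176 (957), D161 (323) and D170 (301). Without these 3 it was still called (1.19, adjusted p = 0.0129). Ndrg2 (0.74) and Slc1a2 (0.50) were the other 2 of 18 astrocyte markers called, and Slc1a2 was not called without the 3 libraries (0.23, adjusted p = 0.402). Of 17 oligodendrocyte markers Ermn rose (1.04), and of 9 precursor, 12 microglia and 5 ependymal markers tested edgeR called 0. DESeq2 called 1 precursor marker lower, and at an unadjusted p under 0.05 the counts were 1, 0 and 0. The endothelial markers Cldn5, a tight junction protein, and Slco1a4, a blood-brain barrier transporter, averaged 102 and 138 CPM in D161, D170 and D176 and 2.32 and 2.48 in the other 5 mutants, and were not called without the 3 libraries (adjusted p = 0.367 and 0.843). Apoe, Ndrg2, Slc1a2, Ermn and Cldn5 were not called without the term for sex. In 9 of the 376 higher genes the mean of these 3 mutants was over 5 times that of the other 5: Agt, Sparc, Mfge8, Slco1c1, Pltp, Sepp1, Slco1a4, Cldn5 and Slc2a1, listed after their values were seen. In the HOX, GABA and dopamine genes described above, by contrast, the calls held without these libraries except where stated.

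Outside the lists several genes stood apart, chosen here after their values were seen. Stxbp2, a syntaxin-binding protein of granule release, was at 20.6 to 44.6 CPM (median 32.7) in wt and 135 to 268.9 CPM (median 194) in mutants (log2 fold change 2.68, SE 0.19, adjusted p = 1.64e-13). Wt1, a zinc finger factor of kidney and gonad, was at 0 to 2.38 CPM (median 0.232) in wt and 9.50 to 31.7 CPM (median 22.3) in mutants (log2 fold change 6.61, SE 0.81, adjusted p = 1.94e-07). Both were higher in every mutant than in any wt library. Grip2, a scaffold of AMPA receptors, was at 592 to 1171 CPM (median 897) in wt and 262 to 397 CPM (median 331) in mutants (log2 fold change -1.44, SE 0.15, adjusted p = 3.17e-09), Arhgap6, a GTPase-activating protein, at 66.1 to 112 CPM (median 88.5) in wt and 15.8 to 37.3 CPM (median 29.8) in mutants (log2 fold change -1.67, SE 0.17, adjusted p = 2.17e-09) and Lix1 at 68.2 to 132 CPM (median 94.9) in wt and 28.6 to 43.9 CPM (median 31.2) in mutants (log2 fold change -1.44, SE 0.17, adjusted p = 6.88e-08). For Grip2, Arhgap6 and Lix1 every mutant was below every wt library. The nuclear RNA Malat1, the most abundant called transcript, was at 32014 to 60879.7 CPM (median 54258) in wt and 25891 to 48431 CPM (median 34951) in mutants, with overlapping ranges (log2 fold change -0.45, SE 0.10, adjusted p = 0.00292), and was not called without the term for sex. The 10 largest decreases by the rule for named genes were Derl3 and 9 table entries of the vomeronasal receptor family Vmn1r, each at medians of 2.29 to 5.16 CPM in wt and 0 in mutants. These entries join near-identical genes under numbered names and largely share their reads, so they are not 9 separate results and which gene the reads come from is uncertain. Myo7a, a motor protein of hair cells, was at 1.6005 to 49.6 CPM (median 28.1) in wt and 0.186 to 4.03 CPM (median 1.34) in mutants (log2 fold change -4.22, SE 0.53, adjusted p = 3.52e-07) and lies 8.10 Mb from Eed on the same chromosome. Of 115 tested genes within 10 Mb of Eed 3 were higher and 3 lower (5.22%), near the 4.32% over all genes.

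The same contrast at 4 months, in 9 wt and 10 mutant libraries from other animals, gave fewer calls. Both contrasts came from the same fit and share its term for sex, so they are not wholly independent. At 4 months 89 of the 15425 genes were higher in mutants (0.577%) and 92 lower (0.596%). Of the 376 genes higher at 8 months 44 were also higher at 4 months and 5 lower, 211 had a positive estimate (56.1%), and their median log2 fold change was 1.49 at 8 and 0.12 at 4 months. Of the 290 lower genes 2 were also lower at 4 months and 5 higher, 131 had a negative estimate (45.2%), and the medians were -0.85 and 0.04. The difference between ages was itself called, in the direction of a larger effect at 8 months, for 201 of the 376 and 182 of the 290, where 3.76% and 2.35% of all genes were called for a positive and a negative difference. The 376 and 290 genes were chosen by their effect at 8 months, which is itself a term of that difference, so a smaller effect at 4 months and a larger share of called differences are built in and nothing is read from them. These counts moved with the term for sex. At 4 months set1 held male wt and female mutants and set3 the reverse, and without the term 66 differences were positive and 88 negative over all genes. Among the genes described here with a called difference, 40 of 63 were called without that term too, and all 63 kept their sign.

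**Figure D5:**
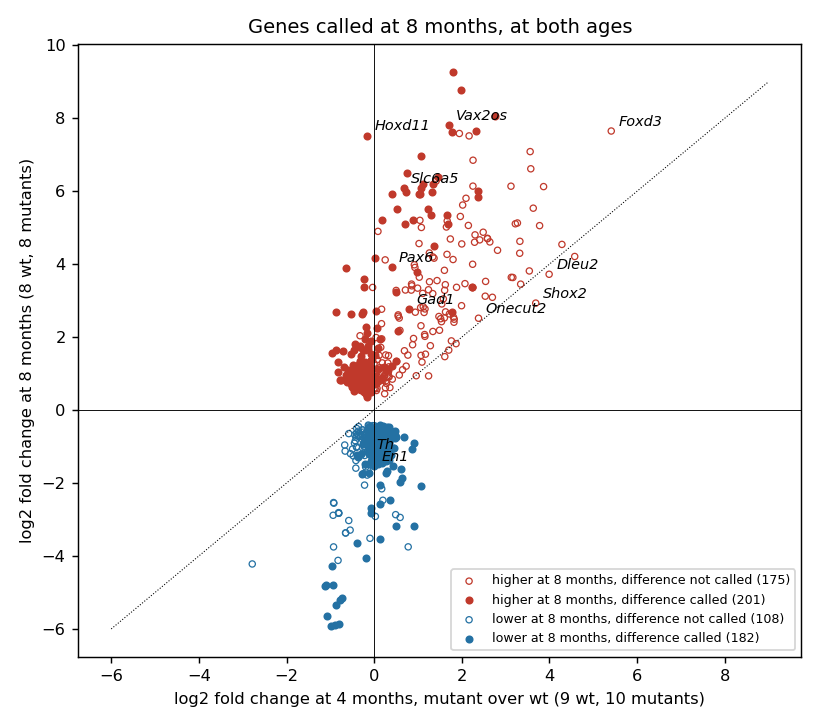
Log2 fold change of mutant over wt at 4 months (x axis; 9 wt, 10 mutants) and at 8 months (y axis; 8 wt, 8 mutants) for the 666 genes called at 8 months, red where higher and blue where lower, filled where the difference between ages was called (201 and 182) and open where it was not; the dotted line marks equal change. Most points lie close to 0 on the x axis, Th and En1 among them, while Shox2, Onecut2 and Dleu2 lie near the dotted line.

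Values for single genes at 4 months are given here under the same limit, since most were chosen by their effect at 8 months. Whether groups of genes differ in this respect was not tested. Th, Slc6a3 and Slc18a2 were near 0 at 4 months, with log2 fold changes of -0.12, 0.16 and -0.22 in that order. Their differences between ages were -1.10 (adjusted p = 2.31e-05), -1.56 (adjusted p = 1.37e-07) and -1.28 (adjusted p = 1.04e-08). Over all 18 genes of dopamine synthesis and handling the median was -0.23 at 4 and -0.36 at 8 months. Only 3 of the 18 differences between ages were called. En1 was at 0.00 at 4 months, with a difference of -1.54 (adjusted p = 2.9e-06). Gad1 had already risen at 4 months (0.79, adjusted p = 0.0178) and its effect was larger at 8 (difference 1.97, adjusted p = 1.5e-05), whereas Slc32a1 (-0.06) and Slc6a5 (0.68) were not called at 4 months and differed by 1.95 (adjusted p = 4.88e-05) and 5.41 (adjusted p = 1.97e-07). Hoxd11 was at -0.16 at 4 months (difference 7.68, adjusted p = 1.82e-05), and the median of the 22 HOX genes was 1.47 at 4 and 5.95 at 8 months. These 22 passed the filter on low counts mainly through mutant libraries at 8 months. A larger median at 8 months is thus in large part built in, and nothing is read from it. Pax6 (0.40 at 4 months) and Vax2os (1.71) differed by 3.52 (adjusted p = 1.31e-07) and 6.09 (adjusted p = 2.85e-05). By contrast Shox2 (3.69 at 4 months, adjusted p = 4.64e-13), Onecut2 (2.38, adjusted p = 1.15e-10), Dleu2 (3.99, adjusted p = 7.64e-09) and Isl2 (3.34, adjusted p = 0.0016) were already higher in mutants at 4 months. Their differences between ages were -0.76 (SE 0.37), 0.14 (SE 0.30), -0.27 (SE 0.57) and 0.11 (SE 1.16) and were not called (adjusted p = 0.231, 0.851, 0.841 and 0.974). Kcns3 went the other way, higher in mutants at 4 months (0.69, adjusted p = 0.0069) and lower at 8 (difference -1.43, adjusted p = 5.37e-05). The oxidative phosphorylation list had a median log2 fold change of -0.34 at 4 months and 0.33 at 8.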

How the data were processed

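RNA-seq was made with Smart-seq2 from sorted neurons, per the labels' protocols. Per the submitters' processing notes the tools include STAR 2.7.0a and the builds mm10 and GRCm38. Counting tool, annotation and strand setting: not given in the sources used here. Reads of antisense or overlapping genes therefore cannot be separated. The deposited table holds raw counts per gene (whole numbers) for 51 libraries and 24564 genes; each column matched 1 label, and 0 sample columns were left unused. A reporter row that names no mouse gene (at most 0.00294% of counts) was left out.

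The 35 mDA libraries (4 groups by genotype and age) were fitted together with edgeR 4.0.16 (R 4.3.3): filterByExpr with a minimum count of 10, TMM, quasi-likelihood with robust spread, terms for sequencing set within age and for sex, and Benjamini-Hochberg adjustment over 15425 genes, called under 0.05. Replicates are separate animals by their numbers, and no label pairs them. The biological coefficient of variation was 0.403. No 2 of the 16 libraries differed by as little as sampling noise (chi-square per degree of freedom 8.42 to 64.5 over 120 pairs). In simulated counts with 100 genes changed 2-fold and 100 changed 4-fold among 15159, the fit recovered 57% and 78%, with 2 false of 137 calls. The simulated counts held no effect of set, sex or single libraries, and genes of the lowest levels were left unchanged. These figures therefore do not give the error rate in the real libraries. Counting intervals cover counting error only.

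Alternatives were DESeq2 1.42.0 with the same terms, other size factors, no filter, no set term, a set term shared over ages, no sex term, the 16 libraries alone, each set alone and each library left out. Coordinates are those of RefSeq GRCm38.p6, matched by symbol for 22459 genes.

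Genes were named by rule: Eed, 13 dopaminergic, serotonergic and CDK inhibitor genes, the 10 largest called changes on each side at a mean log2 CPM of 1 or more (without predicted models, Y-linked genes, Xist and Tsix), and up to 4 called members of each list and direction with the smallest p. Of 53 lists, the mitochondrially encoded genes had no row in the table and erythroid markers 1 tested gene, not called. Some genes that the rule names are not reported here. The genes compared and the lists were chosen with earlier results of these data known.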

Additional observations from a re-analysis of the deposited data

Results flagged for a closer look

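In each of the 105 genes and 8 summed lists described above, the highest or lowest library of each genotype was set against the nearest other library, and 30 such groups (13.3% of those examined, counting each genotype apart) had a gap beyond the critical value of Dixon's test. Chance gives about 1 in 20 such groups where values are spread normally. These counts are not: in 7 of the 30 the group's median was 0, and for Hoxa3, Hoxd8 and Hand2 the library that stood apart held 1 count, so nothing is read from the share. Of the 30, 21 were in wt and 9 in mutants, 9 were C250 and 9 were D161, D170 or D176. The values below are CPM, each with its group's median, and are the highest of the group unless given as the lowest. C250 stood apart for Th (1004 as the lowest, median 1718), Hoxc6 (11.3, median 0), Hoxd13 (5.35, median 0), Hoxa3 (0.594, median 0), Tbx3 (6.54, median 1.09), Ccnd2 (27.3, median 6.75), Cdkn1a (17.2, median 6.80), Wt1 (2.38, median 0.232) and the sum of HOX cluster genes (52.3, median 12.1). D161 stood apart for Drd2 (68.0, median 50.7) and Fev (16.7, median 5.04). D170 stood apart for Aldh1a1 (494, median 186.8), Igf1 (48.1, median 26.3) and the sum of dopamine synthesis and handling (5117, median 4191). D176 stood apart for Pou3f2 (82.4, median 56.7), Ccnd2 (30.6 as the lowest, median 72.0), Apoe (957, median 167) and the sum of astrocyte markers (4118, median 1262). The wt library C47 stood apart for Hoxd8 (0.256, median 0) and Pcgf1 (46.3, median 22.2). The wt library D147 stood apart for Tbx1 (1.26, median 0) and Tph2 (27.5, median 3.15). The wt library C49 stood apart for Barx1 (1.25, median 0.199) and Pmaip1 (4.18, median 0.814). The wt library C45 stood apart for Hand2 (0.292, median 0), Hoxa11os (0.583, median 0) and Fev (3.50, median 0.294). The wt library D833 stood apart for Sv2c (146, median 49.7) and Nr4a1 (42.5, median 18.9). The wt library D107 stood apart for Igf2 (5.41, median 1.90).

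The effect of genotype differed between 8 and 4 months, by the interaction term of the fit, for 63 of the 105 genes. Over all tested genes 3.76% were called for a positive and 2.35% for a negative difference. Most of the 105 were chosen for their call at 8 months, a term of that difference. A larger share is therefore built in and nothing is read from it. The log2 differences (8 minus 4 months) were as follows. It was negative for Th (-1.10), Slc6a3 (-1.56), Slc18a2 (-1.28), En1 (-1.54), Nr4a2 (-0.71), Pbx3 (-0.88), Ebf3 (-1.14), Satb1 (-1.18), Pou3f2 (-1.56), Foxp2 (-0.79), Anxa1 (-2.84), Ndnf (-1.65), Igf1 (-1.19), Kcnj6 (-1.04), Kcns3 (-1.43) and for Kmt2b (-0.87), Scn3a (-0.61), Cacna1a (-1.24), Ntsr1 (-0.68), Oprk1 (-1.19), Gria3 (-0.88), Erc2 (-0.97), Bsn (-1.04), Cadps2 (-0.66), Neo1 (-0.62), Sema4g (-0.98), Unc5c (-0.73), Derl3 (-3.32), Lix1 (-1.63), Arhgap6 (-1.95) and Grip2 (-1.38). It was positive for Calb2 (1.70), Hoxd11 (7.68), Hoxa10 (3.45), Hoxd4 (5.10), Hoxc6 (7.47), Hoxd13 (6.79), Hoxa3 (5.84), Hoxd8 (5.29), Pax6 (3.52), Tbx3 (3.42), Vax2os (6.09), Six3os1 (2.80), Gad1 (1.97), Gad2 (1.13), Slc32a1 (1.95) and Slc6a5 (5.41), and for Pcgf1 (1.61), Ccnd2 (1.13), Bcl2l1 (1.61), Wnt5a (1.83), Kcnf1 (2.46), Syp (1.17), Chga (1.42), Chgb (1.21), Hsp90b1 (0.93), Atp5a1 (0.91), Atp5b (0.99), Rasgrf1 (0.81), Apoe (2.09), Slc1a2 (0.58), Ermn (1.42) and Stxbp2 (0.91). All 63 kept their sign without the term for sex, and 40 were called there too. The values for Hoxc6 and Hoxd13 rest on 0 counts in the 6 wt libraries of set1 and set2 at 8 months, so they depend on the prior count of the fit and are no measure of size.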

How the results depend on the processing

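Every gene called at 8 months that could be fitted kept its sign in the 7 other fits of all libraries or of the 16 alone (363 higher and 263 lower genes in the latter). These fits share the libraries from which the genes were called, so kept signs are largely built in. The counts moved more. For 376 higher and 290 lower genes, DESeq2 gave 580 and 480, no term for sex 231 and 162, the 16 libraries alone 229 and 154, and set2 alone 41 and 16. Set1 alone gave 459 and 298. Without C250, D161, D170 and D176, an alternative chosen after seeing the data, 572 were higher and 419 lower; without only the last 3, also chosen so, 512 and 384. Leaving out 1 library at a time gave 288 to 412 higher and at most 357 lower genes. Both counts were lowest without C51, where 207 of the 290 lower genes were called again. For the difference between ages, 580 positive and 362 negative became 347 and 268 without the set term, 66 and 88 without the sex term, and 721 and 650 with DESeq2. The 2 genes lower at both ages became 1 without the set term, with a set term shared over ages and without the sex term. The cause of these moves was not tested. Signs turned in set2 alone for Atp5b (-0.033), Cacnb4 (0.086), Nefl (-0.044), Scg3 (-0.028) and Tph2 (-1.45), in set1 alone for Cdkn1a (0.11) and Slc6a4 (0.053), and for Cdkn1a without D161, D170 and D176 (0.053) and without these and C250 (0.052). With 1 library left out, Slc6a4 ranged from -0.91 to 0.10 and Tph2 from -0.16 to 1.25. No paired analysis was possible because the replicate labels are animal numbers that wt and mutants do not share. Depth limits the low genes: a count of 3 stood for up to 1.78 CPM in C250.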
